A study of Mus musculus with 9 samples.

Results

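The genes described here encode the semaphorins, plexins, Eph receptors, ephrins, Slit proteins, Robo receptors and netrins, which are the classical families of axon guidance. The rule that took them reads gene symbols and no measured value, although it was chosen with earlier results of these data known. It takes the rows named Sema3 to Sema7, PlxnA to PlxnD, EphA and EphB, EfnA and EfnB, Slit1 to Slit3, Robo1 to Robo4 and Ntn1 to Ntn5. The rule found 62 genes of 18639 rows: 20 semaphorins, 9 plexins, 14 Eph receptors, 8 ephrins, 7 Slit and Robo genes and 4 netrins. Bulk RNA sequencing had been done on tumours of CT2A, a mouse glioma line, taken from the brains of mice on day 5 after resection of the tumour. Of the 9 libraries, 3 came from the ThTC arm, treated with CT2A cells that secrete interferon-beta and GM-CSF, 3 from the GFP-TC arm, treated with control cells, and 3 from the arm labelled sECM only, whose label names no cells. All 3 arms shared the wildtype CT2A tumour and the resection, and any treatment cells left in the tissue were part of the RNA. The labels used here give no mouse strain, sex or age, no genotype of the host, and do not say whether an arm's libraries are different animals. The p-values below therefore cover only library-to-library spread, part of which may be technical. The values are TPM (length-corrected transcript shares scaled to a common total per library). The labels state 4.47 Gb of sequence per sample, and the read depth behind a single value is not known.

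Semaphorins are secreted or membrane-bound ligands that act mainly through plexins, and the secreted class 3 members bind neuropilins as co-receptors. Ephrins are held on the cell surface, by a lipid anchor in the A class and by a membrane-spanning segment in the B class, and meet Eph receptor tyrosine kinases on a neighbouring cell, with signals passing in both directions. Slit proteins repel through Robo receptors, while netrins attract or repel through DCC, neogenin and UNC5 receptors. Beyond the wiring of the brain, the same families are known for shaping blood vessels, for immune cell migration and for the movement of glioma cells.

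The levels of brain cell markers differed between libraries. A neuron score, the mean log2 level of 10 neuronal marker genes centred per gene, was 2.08 in ThTC 3 and 1.78 in GFP-TC 3, and between -1.78 and 0.14 in the other 7 libraries, with GFP-TC 1 lowest. The 10 markers summed to 195 to 1883 TPM under ThTC, 108 to 1617 TPM under GFP-TC and 271 to 503 TPM under sECM only, and all 10 were at 1 TPM or more in every library. The 7 oligodendrocyte markers ran alike, at 159 to 2401, 178 to 1985 and 320 to 710 TPM in the same order of groups, as did the 7 astrocyte markers, at 422 to 1501, 249 to 1295 and 445 to 709 TPM. In bulk tissue, fewer cells of a type and less RNA per cell cannot be told apart.

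The guidance genes were present at very different levels. Plexin B2 (Plxnb2) led at an average of 139 TPM over the 9 libraries, followed by the lipid-anchored semaphorin Sema7a at 89.8, Plxnd1 at 88.1, the Eph receptor gene Ephb4 at 74.1, Sema4b at 72.6, Plxna1 at 67.8, Epha2 at 56.4 and Sema3a at 51.7 TPM. These 8 genes were the members that averaged 50 TPM or more, and 40 of the 62 averaged 5 TPM or more. None was at 0 in any library. The 5 genes Epha1, Epha3, Epha6, Epha8 and Slit3 stayed below the level required for testing, which was 1 TPM or more in at least 3 libraries, and 57 genes were tested. Of those 5, Epha1 lay between 0.16 and 0.36 TPM, Epha3 between 0.06 and 0.80 TPM, and Epha8 between 0.07 and 0.86 TPM. Epha6 reached 2.10 TPM in ThTC 3 and 2.54 TPM in GFP-TC 3, and Slit3 2.57 and 2.17 TPM in the same libraries, while both were at 0.89 TPM or less in the other 7.

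By family, the 20 semaphorins summed to 399 ± 62.2 TPM under ThTC, 461 ± 77.9 TPM under GFP-TC and 435 ± 34.7 TPM under sECM only (SD, n = 3). The 9 plexins, their receptors, summed to 299 ± 25.3, 378 ± 54.3 and 357 ± 50.2 TPM in the same order. Eph receptors summed to 173 ± 17.4, 212 ± 22.3 and 194 ± 8.01 TPM, and ephrins to 148 ± 15.3, 177 ± 9.46 and 167 ± 9.69 TPM. Slit and Robo genes summed to 61.8 ± 7.39, 72.8 ± 17.1 and 61.95 ± 6.05 TPM, and netrins to 69.0 ± 2.35, 77.1 ± 14.6 and 67.6 ± 2.51 TPM. GFP-TC had the highest mean sum in every family, and ThTC the lowest in all but the netrins, though nearly level with sECM only for Slit and Robo. Many other genes ran the same way. Of all tested genes, 66.2% had a lower mean log2 level with ThTC than with GFP-TC, and only 28.2% a lower one with GFP-TC than with sECM only. A single gene made up much of some families: Ntn4 gave 56.4% of netrin TPM, Plxnb2 40.4% of plexin TPM and Ephb4 38.4% of Eph receptor TPM.

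**Figure D1:**
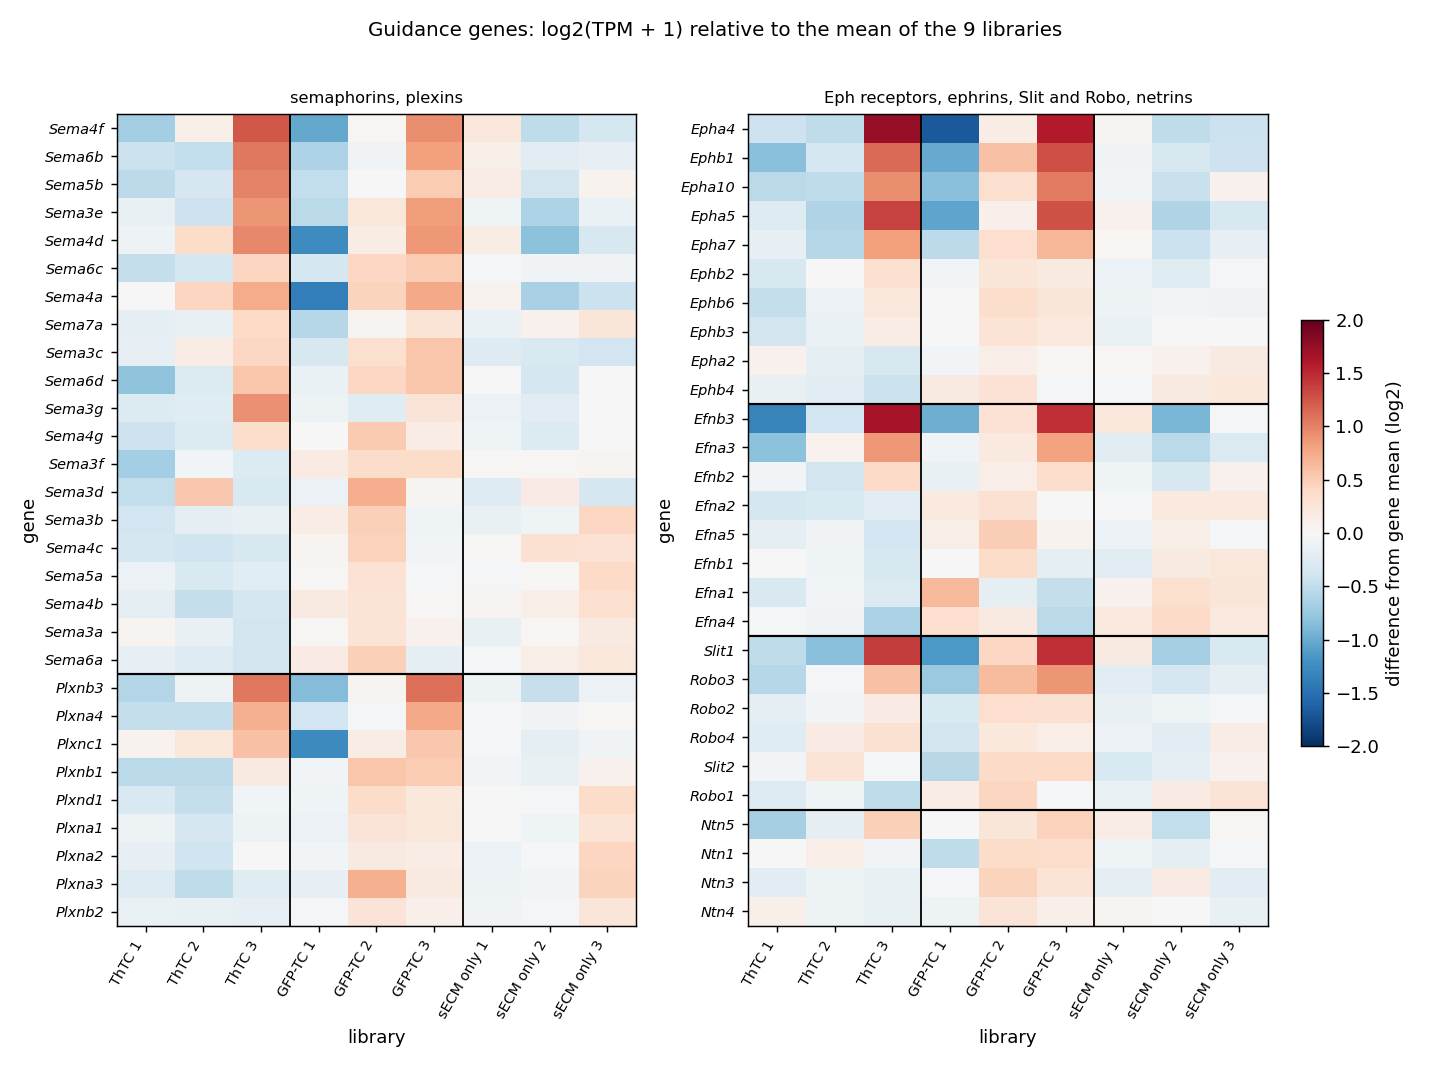
Each row is 1 of the 57 tested genes and each column 1 library, with colour giving log2(TPM + 1) minus the gene's mean over the 9 libraries. Within a family, genes are ordered by how closely they followed the neuron score: those at the top are red in ThTC 3 and GFP-TC 3, and those at the bottom, such as Sema4b, Ephb4 and Plxnb2, are paler and mostly blue in all 3 ThTC libraries.

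ThTC against GFP-TC sets the secreting cells against the control cells. Of the 57 tested guidance genes, 46 had a lower mean log2 level with ThTC (80.7%, beside 66.2% of all 13829 tested genes) and 11 a higher one, with a median log2 difference of -0.25, against a median of -0.10 over all tested genes. None was called by limma, a moderated linear model with all 9 libraries in 1 fit, at an adjusted p of 0.05, and the share called over all tested genes was 0%. At an unadjusted p under 0.05 there were 12 guidance genes, all lower with ThTC, which is 21.1% of them, beside 12.9% of all tested genes lower at the same p (and 2.03% higher, where no guidance gene stood). The ThTC and GFP-TC libraries did not overlap for 12 guidance genes, all lower with ThTC, again 21.1%, beside 16.9% of all tested genes. No guidance gene had all ThTC libraries above all GFP-TC libraries, where 2.2% of all tested genes did. Libraries of the 2 arms were also matched by number, although the labels name no pairing. Their deviations correlated at r = 0.74, 0.12 and 0.87 for numbers 1, 2 and 3. By number, 24 guidance genes were lower with ThTC all 3 times (42.1%, beside 32.6% of all tested genes). Another 3, Sema4d, Sema4f and Plxnc1, were higher all 3 times (5.26%, beside 12% of all tested genes). The smallest adjusted p of any guidance gene was 0.316. The 12 genes at an unadjusted p under 0.05 were 4 semaphorins (Sema4b, Sema4c, Sema3f, Sema6a), 4 plexins (Plxnd1, Plxnb1, Plxnb2, Plxna3), the ephrins Efna2 and Efna5, and the receptors Ephb4 and Robo1.

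Sema4b, a membrane-spanning class 4 semaphorin, held the smallest p of the guidance genes in both ThTC comparisons. Its class was not uniform, as Sema4a, Sema4d and Sema4f had higher mean log2 levels with ThTC than with GFP-TC. Sema4b (chromosome 7, 80186870 to 80226646, GRCm38.p6) was at 62.4, 51.3 and 56.4 TPM under ThTC, against 81.2, 87.0 and 72.9 TPM under GFP-TC and 74.2, 78.5 and 89.3 TPM under sECM only. Every ThTC library lay below every library of the other arms. The means were 56.7 ± 5.52 TPM under ThTC, 80.4 ± 7.10 TPM under GFP-TC and 80.7 ± 7.79 TPM under sECM only (SD, n = 3), a log2 fold change of -0.50 ± 0.11 (SE) against either arm. Adjusted over all tested genes, the limma p was 0.316 against GFP-TC and 0.687 against sECM only.

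Sema4c, which binds plexin B2 (chromosome 1, 36548639 to 36560699), was at 36.3, 35.3 and 37.2 TPM under ThTC, against 48.8, 64.6 and 45.1 TPM under GFP-TC and 47.4, 57.7 and 57.5 TPM under sECM only. The ThTC libraries lay close together and below the other 6. The log2 fold change was -0.51 ± 0.14 (SE) against GFP-TC (limma, adjusted p = 0.316) and -0.56 ± 0.14 against sECM only (adjusted p = 0.687). Sema4d, the ligand of plexin B1, which is also made by T cells and oligodendrocytes, did not share this order. It was at 21.3, 29.96 and 45.3 TPM under ThTC, 9.02, 25.4 and 42.8 TPM under GFP-TC and 25.5, 12.6 and 18.1 TPM under sECM only. Its groups overlapped, with ThTC 3 and GFP-TC 3 highest and GFP-TC 1 lowest, and the same libraries were at the extremes for Sema4a, at 28.7 TPM in ThTC 3, 28.8 TPM in GFP-TC 3 and 5.74 TPM in GFP-TC 1.

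Among the secreted class 3 semaphorins, Sema3f, a ligand of neuropilin-2, was at 3.80, 6.40 and 5.34 TPM under ThTC, against 7.59, 8.90 and 8.91 TPM under GFP-TC and 6.74, 6.78 and 6.91 TPM under sECM only. The ThTC libraries were again the lowest 3 of the 9, and those with GFP-TC the highest 3. The log2 fold change was -0.63 ± 0.18 (SE) against GFP-TC (limma, adjusted p = 0.316) and -0.36 ± 0.18 against sECM only (adjusted p = 0.687), which was -0.19 without ThTC 1. Sema3a, the ligand of neuropilin-1, averaged 46.3 ± 6.96 TPM under ThTC, 56.4 ± 5.39 TPM under GFP-TC and 52.5 ± 5.88 TPM under sECM only, and its groups overlapped. Sema3c averaged 3.98 ± 0.965, 4.26 ± 1.55 and 2.60 ± 0.166 TPM in the same order, and each ThTC library, at 3.01, 3.98 and 4.94 TPM, lay above each sECM only library, at 2.75, 2.62 and 2.42 TPM. Sema3b and Sema5a had all 3 ThTC libraries below the other 6. Sema3b was at 9.68 to 11.65 TPM under ThTC, but sECM only 1 was nearly level with the highest of these, at 11.68 TPM. Sema5a was at 22.9 to 26.1 TPM under ThTC, against 27.9 to 37.8 TPM in the other arms.

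**Figure D2:**
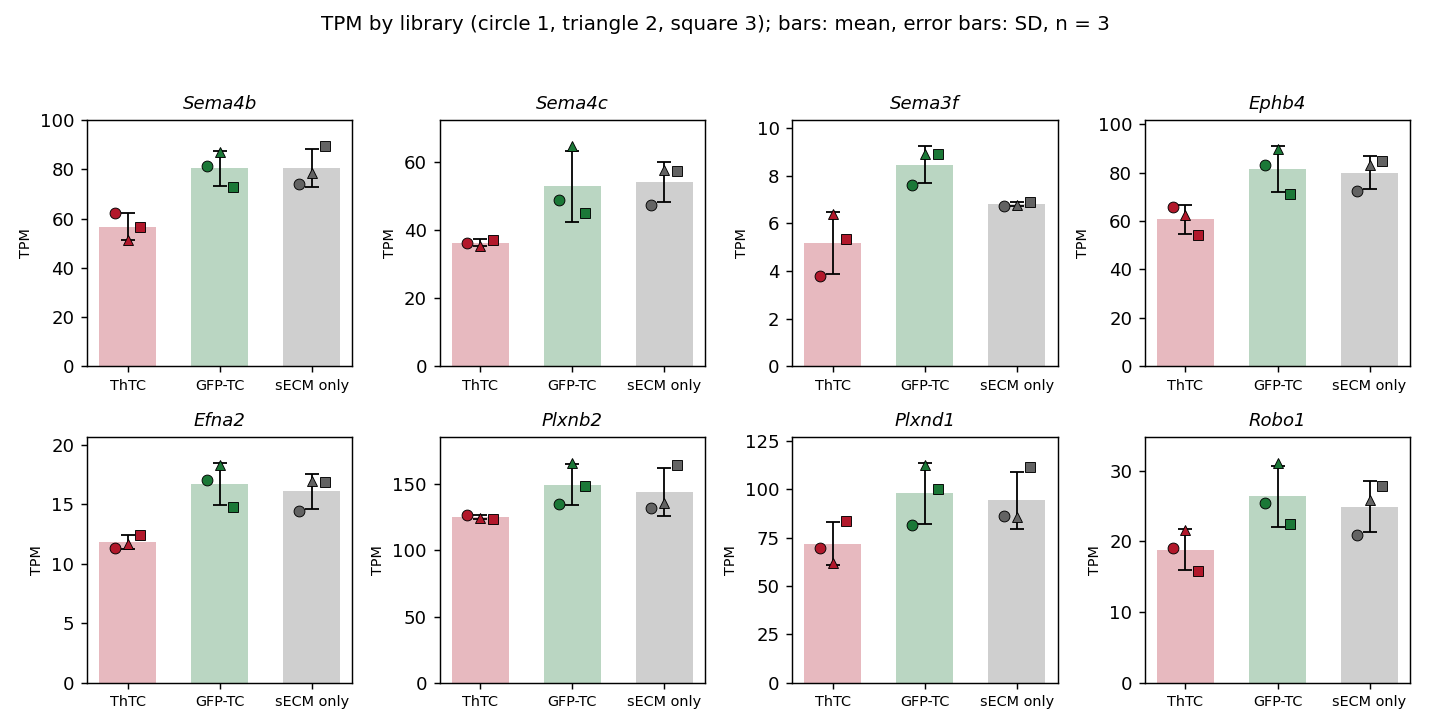
TPM of 8 guidance genes in each library, with bars for the mean and error bars for the SD of 3 libraries per arm, and circle, triangle and square for replicate 1, 2 and 3. ThTC lies below both other arms without overlap in Sema4b, Sema4c, Sema3f, Ephb4, Efna2 and Plxnb2, and overlaps at least 1 other arm in Plxnd1 and Robo1.

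Of the 9 plexins, the receptors, 7 had a lower mean log2 level with ThTC than with GFP-TC (77.8%, beside 66.2% of all tested genes). Plxnb2 was at 127, 124 and 124 TPM under ThTC, against 135, 166 and 148 TPM under GFP-TC and 131, 135 and 164 TPM under sECM only. The ThTC libraries differed by less than 3 TPM among themselves and lay below the other 6, although the nearest sECM only library was close. The log2 fold change was -0.25 ± 0.11 (SE) against GFP-TC (limma, adjusted p = 0.33) and -0.19 ± 0.11 against sECM only (adjusted p = 0.687), but -0.12 against GFP-TC with median-of-ratios scaling and -0.09 against sECM only without sECM only 3. Plxnd1, a plexin of blood vessels, was at 69.8, 62.1 and 83.8 TPM under ThTC, against 81.4, 112 and 99.9 TPM under GFP-TC and 86.2, 85.6 and 111 TPM under sECM only. ThTC 3 lay above GFP-TC 1, so these groups overlapped, although each ThTC library lay below its same-numbered GFP-TC library, while all ThTC libraries lay below those with sECM only, and the log2 fold changes were -0.44 and -0.39 ± 0.16 (SE; limma, adjusted p = 0.316 and 0.687).

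Plxnb1 averaged 11.2 ± 3.70 TPM under ThTC, 17.7 ± 4.02 TPM under GFP-TC and 13.2 ± 1.2 TPM under sECM only (SD, n = 3). ThTC 3, at 15.5 TPM, stood apart from ThTC 1 and 2, at 9.04 and 9.12 TPM, and overlapped both other arms. Plxna3 was at 7.65 to 9.48 TPM under ThTC, against 9.98 to 19.2 TPM under GFP-TC and 10.5 to 15.7 TPM under sECM only, with GFP-TC 2 far above the rest of its arm. Plxna1 averaged 59.3 ± 5.43, 73.7 ± 10.4 and 70.6 ± 9.92 TPM in the same order of arms (limma, adjusted p = 0.344 for ThTC against GFP-TC). Plxnc1, the receptor of Sema7a, had the highest log2 difference of the family, 0.48 ± 0.42 (SE), with 4.0, 4.53 and 6.08 TPM under ThTC, against 0.97, 4.27 and 5.90 TPM under GFP-TC and 3.62, 3.12 and 3.52 TPM under sECM only. GFP-TC 1 was the low value there: without it the log2 difference was -0.05, and without GFP-TC 3 it was 0.85. Each ThTC library lay above each sECM only library. Sema7a itself averaged 90.7 ± 22.0 TPM under ThTC, 85.9 ± 24.1 TPM under GFP-TC and 92.8 ± 12.1 TPM under sECM only, with full overlap.

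For the Eph receptors, the 2 abundant genes had lower means with ThTC. Ephb4, the receptor of ephrin-B2 known from veins (chromosome 5, 137350109 to 137374522), was at 65.7, 62.3 and 54.2 TPM under ThTC, against 83.4, 89.7 and 71.1 TPM under GFP-TC and 72.2, 83.2 and 84.6 TPM under sECM only. Each ThTC library lay below the other 6, and the log2 fold change was -0.41 ± 0.12 (SE) against GFP-TC (limma, adjusted p = 0.316) and -0.39 ± 0.12 against sECM only (adjusted p = 0.687). Epha2, a receptor known from glioma, was at 59.8, 48.7 and 44.9 TPM under ThTC, against 54.1, 61.3 and 57.9 TPM under GFP-TC and 57.4, 59.6 and 63.4 TPM under sECM only. ThTC 1 lay among the controls and the groups overlapped. Ephb6, whose kinase domain lacks activity, averaged 27.9 ± 6.96 TPM under ThTC, 34.6 ± 4.28 TPM under GFP-TC and 28.3 ± 0.541 TPM under sECM only, and each GFP-TC library lay above each sECM only library.

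All 8 ephrins had a lower mean log2 level with ThTC than with GFP-TC. Efna2, a lipid-anchored ligand of EphA receptors (chromosome 10, 80179482 to 80190010), was at 11.3, 11.7 and 12.4 TPM under ThTC, against 17.0, 18.3 and 14.8 TPM under GFP-TC and 14.4, 17.0 and 16.9 TPM under sECM only. Every ThTC library lay below the other 6, with log2 fold changes of -0.46 ± 0.12 (SE) against GFP-TC (limma, adjusted p = 0.316) and -0.42 ± 0.12 against sECM only (adjusted p = 0.687). Efna5 averaged 13.6 ± 1.60 TPM under ThTC, 18.9 ± 3.36 TPM under GFP-TC and 15.8 ± 1.38 TPM under sECM only, and ThTC overlapped the last. Efna1, a ligand of EphA2, was at 21.1, 25.4 and 21.4 TPM under ThTC, against 41.9, 23.2 and 18.7 TPM under GFP-TC and 28.2, 33.0 and 31.3 TPM under sECM only. Efna4 was at 28.6, 27.8 and 18.6 TPM under ThTC, 37.4, 33.4 and 19.9 TPM under GFP-TC and 33.8, 38.9 and 33.8 TPM under sECM only. For both, every ThTC library lay below every sECM only library, and GFP-TC held values on either side. Efnb1 averaged 35.3 ± 4.11, 41.0 ± 8.37 and 40.5 ± 6.70 TPM in the same order of arms. Efnb2, the partner of EphB4 and an arterial marker, averaged 10.3 ± 2.98, 11.2 ± 2.07 and 9.43 ± 1.44 TPM, with overlap throughout.

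In the remaining families, Robo1 was at 19.1, 21.6 and 15.8 TPM under ThTC, against 25.5, 31.1 and 22.5 TPM under GFP-TC and 20.9, 25.9 and 27.8 TPM under sECM only. It lay below all GFP-TC libraries but overlapped sECM only, with log2 fold changes of -0.46 and -0.39 ± 0.17 (SE; limma, adjusted p = 0.316 and 0.687). Its ligand gene Slit2 averaged 13.3 ± 1.92 TPM under ThTC, 13.9 ± 4.92 TPM under GFP-TC and 11.5 ± 1.71 TPM under sECM only. Robo2 averaged 16.7 ± 2.09, 18.8 ± 4.62 and 15.9 ± 0.645 TPM, and Robo4, a Robo receptor of endothelial cells, 7.54 ± 1.63, 7.09 ± 1.65 and 6.69 ± 1.05 TPM, in the same order. Ntn4, a netrin that binds basement membranes, was among the steadiest guidance genes, at 38.7 ± 3.82, 42.6 ± 5.40 and 39.1 ± 2.77 TPM. Ntn1 averaged 22.8 ± 1.62, 24.3 ± 7.82 and 20.8 ± 1.34 TPM, with GFP-TC 1 lowest at 15.3 TPM. Ntn3 was at 4.48 to 4.91 TPM under ThTC, against 5.24 to 7.71 TPM under GFP-TC and 4.47 to 6.12 TPM under sECM only.

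Markers of other cells are given for the same arms. The 7 monocyte and macrophage markers summed to 1175 to 2216 TPM under ThTC, 601 to 1191 TPM under GFP-TC and 868 to 1084 TPM under sECM only, and the 7 fibroblast markers to 1000 to 1427, 1400 to 1958 and 1343 to 1679 TPM. Single genes made up much of both sums. Lyz2 was at 694 to 1500 TPM under ThTC and 362 to 570 TPM in the other arms. Mrc1 was instead at 2.98 to 8.76 TPM under ThTC and 8.35 to 18.4 TPM under sECM only. Col3a1 was at 875 to 1136 TPM under ThTC and 1138 to 1654 TPM in the other arms. The mean log2 level of the fibroblast markers, centred per gene, was -0.52, 0.55 and -0.61 in ThTC 1, 2 and 3. It lay between -0.13 and 0.25 in the other arms. The 8 endothelial markers summed to 98.9 to 192, 109 to 158 and 134 to 158 TPM, and the 7 pericyte and smooth muscle markers to 93.2 to 117, 104 to 147 and 113 to 145 TPM. The 6 microglia markers summed to 395 to 765, 254 to 586 and 336 to 425 TPM, and the 6 T cell markers in the files to 73.7 to 80.2, 6.08 to 62.8 and 18.3 to 74.1 TPM. None of these markers was at 0 in any library, and their part in the guidance genes' differences was not tested. With the neuron score as a covariate, 21 guidance genes stood at an unadjusted p under 0.05 in ThTC against GFP-TC, all lower, beside 19.4% of all tested genes lower and 5.45% higher, and 0 were called. Scaling the libraries by median-of-ratios factors, which moved the all-gene median log2 difference by 0.12, left 7 guidance genes, 12.3% of them, all lower, beside 3.72% of all tested genes lower and 5.61% higher, and the median log2 difference was then -0.14 for guidance genes and 0.02 for all tested genes. Without GFP-TC 2 there were 5, which were Sema4b, Sema4c, Efna2, Sema3f and Ephb4, beside 4.3% of all tested genes lower and 1.27% higher. Without ThTC 2 there were 7, all lower, beside 4.89% of all tested genes lower and 0.745% higher.

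The comparison of ThTC with sECM only sets the secreting cells against the arm whose label names no cells. It shares the ThTC libraries with the comparison just described. Here 30 guidance genes had a lower mean log2 level with ThTC (52.6%, beside 55.6% of all tested genes) and 27 a higher one, with a median log2 difference of -0.02, against -0.03 over all tested genes. limma called 0 guidance genes at an adjusted p of 0.05, as it did over all genes (0%). At an unadjusted p under 0.05 there were 7, all lower: Sema4b, Sema4c, Ephb4, Efna2, Sema5a, Plxnd1 and Robo1, together 12.3% of the tested guidance genes, beside 5.36% of all tested genes lower and 1.54% higher. The libraries did not overlap for 14 lower and 2 higher guidance genes, 24.6% and 3.51% of them, beside 12.1% and 5.03% of all tested genes. The 2 higher ones were Sema3c and Plxnc1. The count of 7 was 4 without sECM only 3, beside 1.8% of all tested genes lower and 1.05% higher, and 11 when the ThTC and sECM only libraries were fitted alone, beside 6.39% lower and 3.66% higher. With the neuron score as a covariate it was 13, of which Sema3c and Sema4d were higher with ThTC, beside 7.59% of all tested genes lower and 4.15% higher. Taking all 9 libraries, ThTC lay below the other 6 without overlap for 9 guidance genes, namely Efna2, Ephb4, Plxna3, Plxnb2, Sema3b, Sema3f, Sema4b, Sema4c and Sema5a, where 7.58% of all tested genes did so, and above them for 0, where 1.16% did so.

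GFP-TC against sECM only sets the control cells against the arm whose label names no cells. Of the guidance genes, 49 had a higher mean log2 level with GFP-TC and 8 a lower one (14%, beside 28.2% of all tested genes), with a median log2 difference of 0.20, against 0.08 over all tested genes. limma called 0 at an adjusted p of 0.05 (0% over all genes) and placed 0 at an unadjusted p under 0.05, where 0.499% of all tested genes were higher and 0.434% lower. The smallest p was that of Sema3c (limma, adjusted p = 0.997), at 2.57, 4.61 and 5.61 TPM under GFP-TC, against 2.75, 2.62 and 2.42 TPM under sECM only, with GFP-TC 1 level with the sECM only libraries. Efna3, an ephrin expressed in brain, was at 13.4, 16.3 and 25.2 TPM under GFP-TC, against 11.9, 9.39 and 11.3 TPM under sECM only. Efna3, Sema3f and Ephb6 were the 3 genes whose libraries did not overlap, all higher with GFP-TC, which is 5.26% of the tested guidance genes, beside 3.15% of all tested genes higher and 1.08% lower. Without GFP-TC 1, 9 guidance genes stood at an unadjusted p under 0.05, 8 of them higher (Ntn1, Sema3c, Sema4a, Robo2, Slit2, Robo3, Plxnb1 and Ntn3), where 7.06% of all tested genes were higher and 2.44% lower, and Efna1 was lower. Even then 0 were called, at a smallest adjusted p of 0.498.

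**Figure D3:**
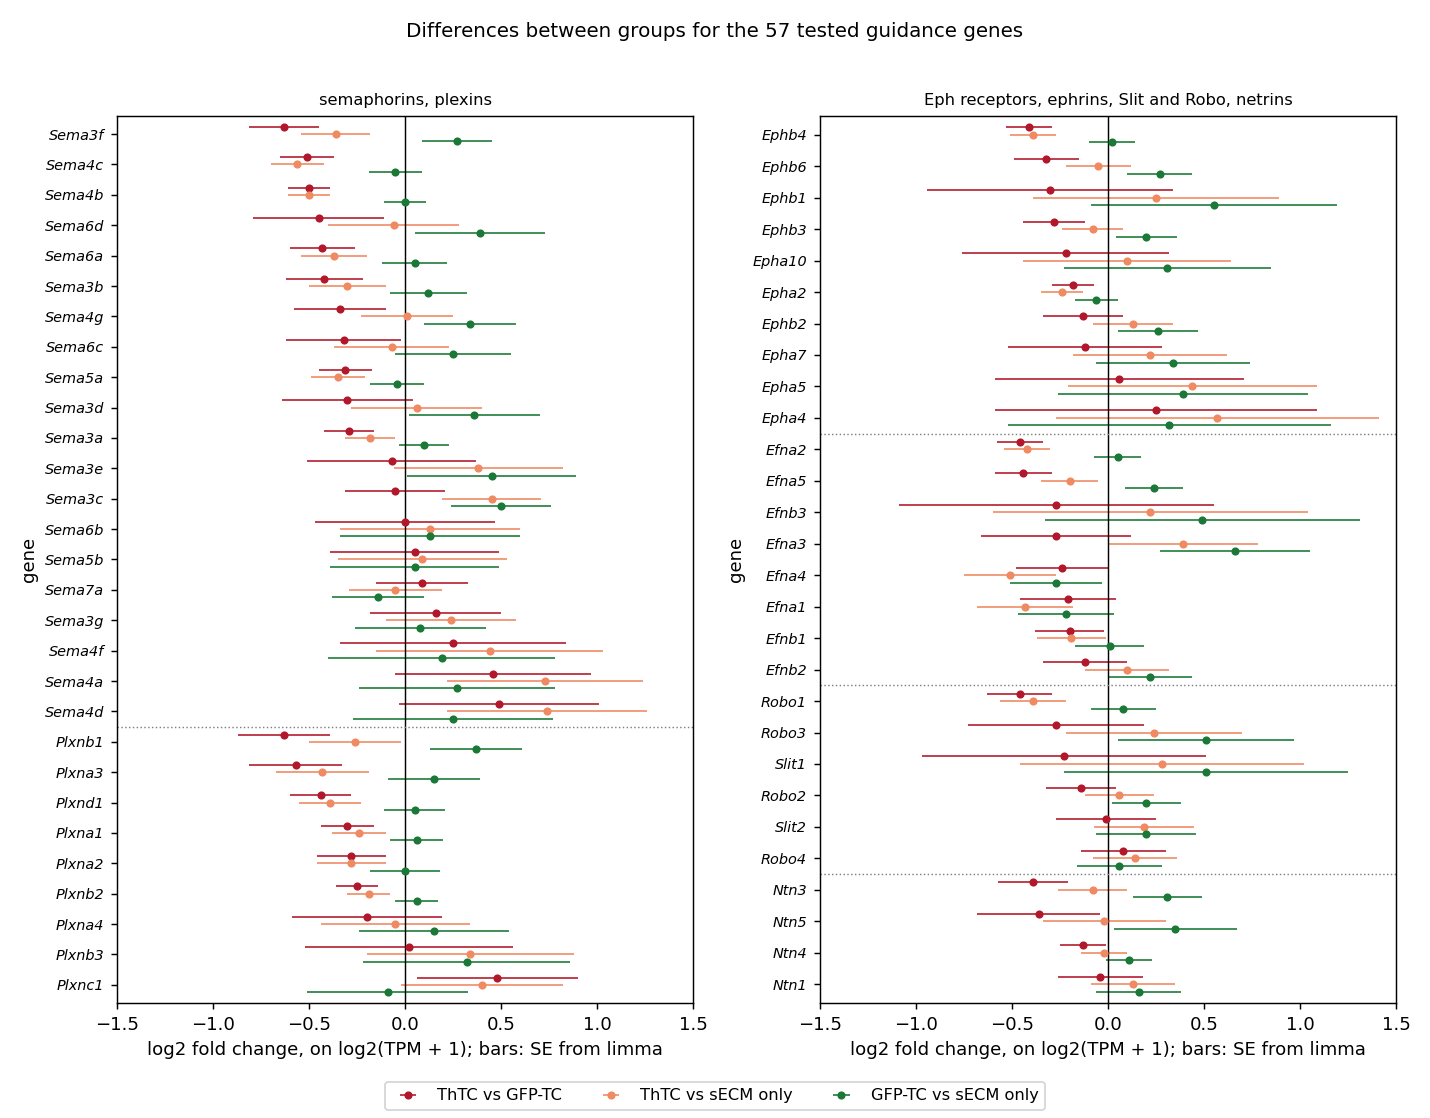
Log2 fold changes on the log2(TPM + 1) scale, with SE from limma, of the 57 tested guidance genes in the 3 comparisons, by family. Sema4b, Sema4c, Ephb4 and Efna2 have narrow bars to the left of 0 in both comparisons of ThTC and bars that cross 0 in GFP-TC against sECM only, while Epha4, Efnb3 and Slit1 have wide bars that cross 0.

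Many of these genes also differed widely between libraries. The measures given first span all 9 libraries, so they include differences between arms. The median SD of the log2 level over the 9 libraries was 0.32 for guidance genes, against 0.22 for all tested genes. The highest library exceeded the lowest more than 5-fold in TPM for 14 of 57 guidance genes (24.6%), beside 13.6% of all tested genes. For all of these 14 but Efnb3, Sema4a and Sema4d, the lowest value was below 1 TPM, where such ratios are uncertain. ThTC 3 and GFP-TC 3, the libraries of highest neuron score, were the top pair for 24 guidance genes (42.1%), beside 23.9% of all tested genes. Epha4, a receptor for both classes of ephrins that is abundant in neurons, was at 2.09, 1.90 and 12.7 TPM under ThTC, 0.28, 3.58 and 11.4 TPM under GFP-TC and 3.27, 1.88 and 2.06 TPM under sECM only. Efnb3, which acts on EphA4 at the midline of the mouse spinal cord, was at 2.76, 6.28 and 28.9 TPM under ThTC, 3.83, 10.6 and 24.9 TPM under GFP-TC and 10.1, 4.0 and 8.30 TPM under sECM only. Both were far higher in ThTC 3 and GFP-TC 3 than in any other library.

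Slit1, a Slit of the nervous system, ran in the same way, at 8.10 TPM in ThTC 3 and 8.52 TPM in GFP-TC 3 and 0.56 to 3.59 TPM in the other 7. Sema6b was at 35.5 and 30.1 TPM in those libraries and 10.4 to 18.1 TPM elsewhere, and Sema6d at 14.7 and 14.8 TPM and 5.12 to 13.3 TPM elsewhere. Epha5, Ephb1, Sema4f and Plxnb3 were each highest in the same pair. Other genes did not run this way: 10 of 57 were lowest in ThTC 3, among them Efna4, Efna5, Efnb1, Epha2, Ephb4 and Robo1, and Efna1 was lowest in GFP-TC 3. Efna4 had its lowest pair of values in ThTC 3 and GFP-TC 3. Beside these, 16 guidance genes were lowest in ThTC 1, 10 in ThTC 2 and 17 in GFP-TC 1 (29.8%, beside 23.4% of all tested genes). The share of all tested genes lowest in ThTC 3 was not computed, so that count cannot be read as particular to guidance genes.

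Since the neuron score put ThTC 3 and GFP-TC 3 apart from the rest, the relation was examined in the other 7 libraries. There 53 of 57 guidance genes had a positive Pearson r with the score, with a median of 0.42, against a median of 0.26 over 13819 tested genes outside the score, and an r above 0.8 was seen for 7 guidance genes (12.3%) and 10.6% of those tested genes. Plxnb3 had r = 0.96 (Spearman rho = 0.96; exact permutation p = 0.000595, two-sided, adjusted p = 0.0339 over 57 genes) and Sema4f r = 0.94 (rho = 0.89; exact permutation p = 0.00119, adjusted p = 0.0339), and these were the only 2 past the threshold by Pearson r, with 0 by Spearman rho. For these 7 libraries, the share of all tested genes with as small a permutation p was not computed. The count of 2 therefore cannot be read as particular to guidance genes. Over all 9 libraries, with ThTC 3 and GFP-TC 3 included, 29 genes passed (50.9%), 28 of them positive, beside 29.5% of the tested genes outside the score with as small a permutation p. Spearman rho gave 24 (42.1%), beside 24.4%. Over deviations from the arm means 17 passed (29.8%), beside 17.4%, with Efna4 as the only negative one. Plxnb3 was at 0.98, 1.79 and 5.16 TPM under ThTC, 0.64, 2.11 and 5.40 TPM under GFP-TC and 1.78, 1.17 and 1.76 TPM under sECM only. Sema4b and Ephb4, among the lowest p of both ThTC comparisons, had r = 0.02 each in the 7 libraries. Over deviations from the arm means in all 9, r was -0.41 for Sema4b and -0.75 for Ephb4, neither past the threshold (exact permutation, adjusted p = 0.498 and 0.15).

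**Figure D4:**
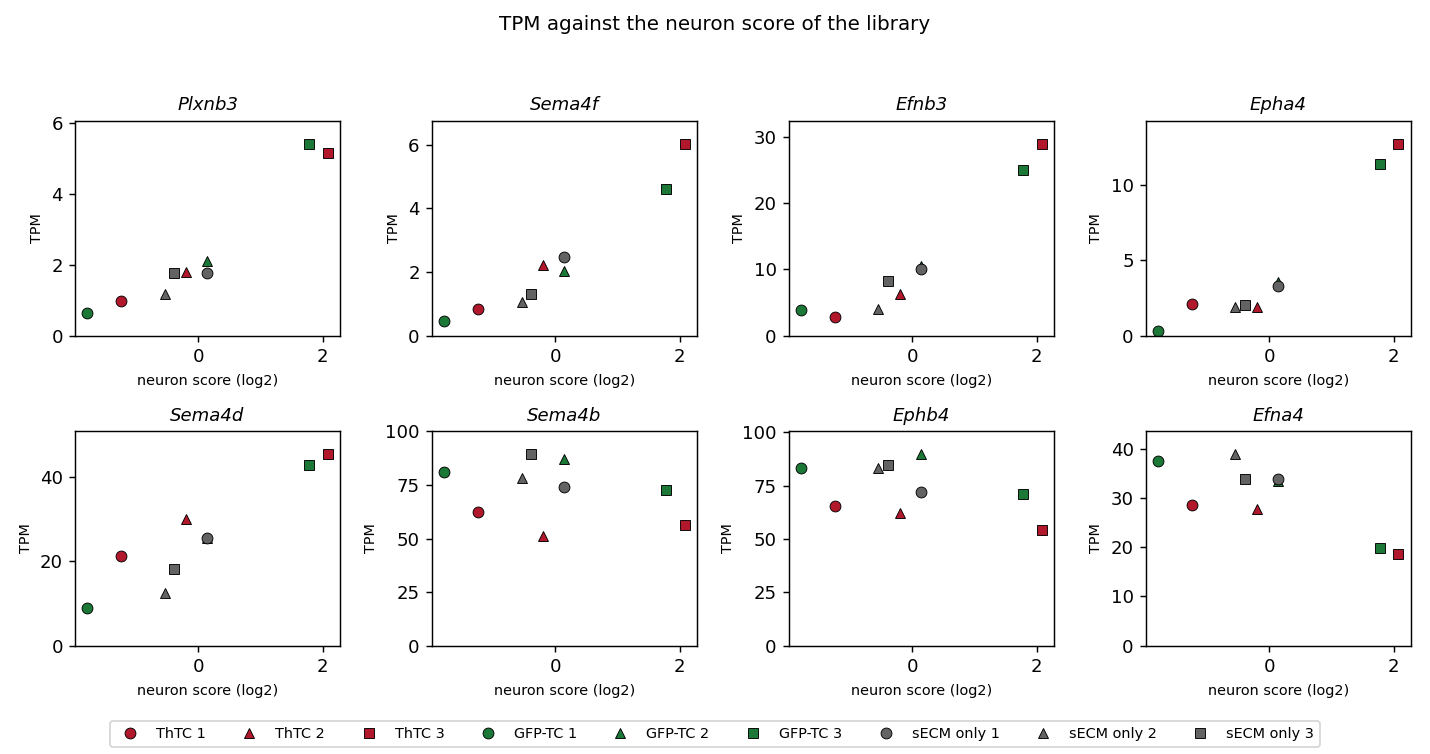
TPM of 8 guidance genes against the neuron score of each library, with colour for the arm and shape for the replicate number. Plxnb3, Sema4f, Efnb3, Epha4 and Sema4d are highest in ThTC 3 and GFP-TC 3 at the right, Efna4 is lowest there, and in Sema4b and Ephb4 the 3 ThTC points lie below the other 6.

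The promoters of the 4 genes with the smallest p in ThTC against GFP-TC that have a promoter sequence at hand are shown because their levels were lower together, and those of Plxnb3 and Sema4f because they followed the neuron score most closely. Each is the 250 bases before a RefSeq start site on GRCm38.p6, written 5′ to 3′ on the strand of the gene, with GC boxes (GGGCGG or its reverse complement CCGCCC, overlaps included) in capitals. They lie at chr7:80186620-80186869 (plus strand) for Sema4b, chr10:80179232-80179481 (plus) for Efna2, chr1:36558382-36558631 (minus) for Sema4c, chr5:137349859-137350108 (plus) for Ephb4, chrX:73756853-73757102 (plus) for Plxnb3 and chr6:82939770-82940019 (minus) for Sema4f. The windows of Sema4c and Plxnb3 lie inside the annotated span of the gene, before a listed internal start.
Sema4b: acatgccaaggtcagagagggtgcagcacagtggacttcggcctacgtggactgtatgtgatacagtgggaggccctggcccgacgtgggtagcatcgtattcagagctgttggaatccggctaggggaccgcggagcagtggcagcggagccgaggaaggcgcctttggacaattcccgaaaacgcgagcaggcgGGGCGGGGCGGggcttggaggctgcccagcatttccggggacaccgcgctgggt
Efna2: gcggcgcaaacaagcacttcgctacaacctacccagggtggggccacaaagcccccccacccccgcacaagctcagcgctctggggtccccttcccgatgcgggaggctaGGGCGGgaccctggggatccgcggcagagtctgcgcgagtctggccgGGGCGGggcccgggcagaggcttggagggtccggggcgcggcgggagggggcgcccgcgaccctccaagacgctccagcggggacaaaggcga
Sema4c: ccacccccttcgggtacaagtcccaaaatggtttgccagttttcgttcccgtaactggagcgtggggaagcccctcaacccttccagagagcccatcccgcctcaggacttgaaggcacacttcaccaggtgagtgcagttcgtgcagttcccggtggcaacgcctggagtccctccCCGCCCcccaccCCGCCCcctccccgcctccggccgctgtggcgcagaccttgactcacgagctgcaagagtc
Ephb4: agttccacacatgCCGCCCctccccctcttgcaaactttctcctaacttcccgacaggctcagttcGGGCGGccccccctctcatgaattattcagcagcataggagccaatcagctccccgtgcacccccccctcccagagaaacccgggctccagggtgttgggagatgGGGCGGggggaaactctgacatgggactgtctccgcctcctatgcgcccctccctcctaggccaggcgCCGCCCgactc
Plxnb3: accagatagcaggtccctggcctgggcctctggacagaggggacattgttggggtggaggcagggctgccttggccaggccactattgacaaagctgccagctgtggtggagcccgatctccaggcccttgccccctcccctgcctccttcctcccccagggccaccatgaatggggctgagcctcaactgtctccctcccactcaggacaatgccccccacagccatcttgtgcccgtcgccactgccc
Sema4f: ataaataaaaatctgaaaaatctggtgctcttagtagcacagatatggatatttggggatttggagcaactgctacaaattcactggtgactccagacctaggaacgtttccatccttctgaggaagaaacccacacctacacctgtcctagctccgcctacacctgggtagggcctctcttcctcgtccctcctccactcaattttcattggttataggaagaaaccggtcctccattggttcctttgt

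Ephb4 held 4 GC boxes, Sema4b, Efna2 and Sema4c 2 each, and Plxnb3 and Sema4f 0. A GC box was found in 39 of the 54 guidance genes with a promoter sequence (72.2%), beside 58.4% of 10791 tested genes and 32.9% of all 27025 promoters of that length, and the median GC content was 64.4%, 59.6% and 52% in the same order. The CCAAT box (CCAAT or ATTGG) was found in 27.8% of the guidance genes and 36.4% of tested genes. The TATA box (TATAAA or TTTATA) was in 3.7% and 6.46%. The core of the interferon-stimulated response element, on either strand, was in Plxnc1 and Sema6b, 3.7% of the guidance genes, beside 2.88% of tested genes. These are letter matches in a short window, not binding sites.

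A list of 64 partner genes of these families, namely co-receptors, other guidance ligands and intracellular effectors, had 59 tested members. In ThTC against GFP-TC, limma called 0 of them, with 12 lower (20.3%) and 1 higher (1.69%) at an unadjusted p under 0.05, beside 12.9% and 2.03% of all tested genes. By class, 5 of 16 tested receptors and co-receptors were lower, as were 3 of 6 other ligands and 4 of 37 effectors (10.8%), with 1 effector higher. Unc5b, a netrin receptor, averaged 101 ± 12.4 TPM under ThTC, 142 ± 23.0 TPM under GFP-TC and 149 ± 23.4 TPM under sECM only (SD, n = 3; limma, adjusted p = 0.316 and 0.687 for ThTC against each). Flrt3, whose protein binds UNC5B, averaged 9.94 ± 0.211, 14.2 ± 1.80 and 14.1 ± 1.76 TPM, and Rgmb, a ligand of neogenin, 90.3 ± 6.56, 118 ± 15.4 and 114 ± 3.34 TPM in the same order, with the same adjusted p values. Itga1, the integrin alpha 1 subunit, which with beta 1 binds Sema7A, averaged 9.51 ± 2.62, 15.9 ± 3.32 and 14.8 ± 2.08 TPM. Rhoa, a GTPase downstream of many of these receptors, was the higher effector, with a log2 fold change of 0.15, or 0.29 with median-of-ratios scaling.

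In ThTC against sECM only, 8 of the 59 partners (13.6%) were lower and 0 higher at an unadjusted p under 0.05, beside 5.36% and 1.54% of all tested genes. In GFP-TC against sECM only there were 0, beside 0.434% lower and 0.499% higher. limma called 0 in both. The 3 partners with the smallest p in GFP-TC against sECM only were Enah, an actin regulator downstream of Robo, at 10.5 ± 2.12 against 7.08 ± 0.0569 TPM, Mical3 at 6.88 ± 1.14 against 5.30 ± 0.545 TPM, and Farp1 at 50.2 ± 8.46 against 42.9 ± 0.815 TPM (SD, n = 3; limma, adjusted p = 0.997 each). Among receptors, the levels of the netrin system were uneven: Unc5b lay between 86.5 and 176 TPM over the 9 libraries and Neo1, which encodes neogenin, between 42.5 and 63.7 TPM, while Dcc lay between 0.06 and 0.62 TPM. Of the neuropilins, Nrp2 lay between 68.5 and 88.4 TPM and Nrp1 between 9.81 and 21.4 TPM.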

How the data were processed

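Files of 9 bulk RNA libraries held 1 TPM value per gene, made by the authors and deposited with 2 decimals, per the file headers. The submitters' processing notes name HISAT and the builds GRCm38.p6 and mm10. The sources used here do not give the tool behind the TPM values, the annotation, the strand setting or any filter. Depth is not kept in TPM, so no counting interval or count test was possible. TPM is a share: higher values for some genes mean lower ones elsewhere.

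Values were analysed as log2(TPM + 1), which understates changes of genes with low TPM. The 13829 genes that reached 1 TPM in 3 or more libraries entered limma 3.58.1 (R 4.3.3, intensity trend, 9 libraries, 1 fit), with Benjamini-Hochberg adjustment over all of them and a threshold of 0.05. Correlations used exact permutation of the libraries (within arms for deviations from arm means). In 20 simulated sets of 13829 genes for ThTC against GFP-TC, 200 of them changed, limma called 12.4% at a 1.5-fold change, 58.5% at 2-fold and 84.7% at 4-fold. All 62 genes matched RefSeq (GRCm38.p6), whose promoter table held 54. Efnb3, Ntn1, Plxna1, Plxna4, Sema3b, Sema3f, Sema6a and Slit1 are named only. Figures used Python 3.11.15 with matplotlib 3.10.9.

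Members and lists were chosen with earlier results of these data known. Named by rule were, per family, the smallest p in each comparison (average of 2 TPM or more), the 2 highest averages, 18 fixed genes and the 3 partners of smallest p per comparison. Other genes were named after their values were seen. Same-numbered libraries of ThTC and GFP-TC deviated together for numbers 1 and 3 but little for number 2 (r = 0.74, 0.12 and 0.87 over tested genes). The labels name no pairing. The printed p, SE and fold changes come from the fit without a block, and the replicate block was an alternative. Same-numbered libraries of either arm and sECM only correlated at -0.55 to 0.28.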

Additional observations from a re-analysis of the deposited data

How the results depend on the processing

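Under 19 other settings, which were another pseudocount, other filters, median-of-ratios scaling, 2 arms only, a replicate block, the neuron score as a covariate, no intensity trend, each library left out and, chosen after seeing the data, ThTC 3 and GFP-TC 3 left out, limma called 0 guidance genes (smallest adjusted p 0.145). The 36 fold changes followed through the settings kept their sign in all 683 refits. Those genes were among the smallest p of a family or partner list, or under an unadjusted p of 0.05, in the main limma fit. Picking them from that fit made a stable sign likely. Plxnc1, outside the 36, went from 0.48 to -0.05 in ThTC against GFP-TC without GFP-TC 1. At an unadjusted p under 0.05 the 12 guidance genes of ThTC against GFP-TC became 7 with median-of-ratios scaling and 21 with the neuron score, and ranged from 5 to 15 with 1 library left out. The replicate block changed no call. It gave 15 in the 6 libraries of both arms, of which Sema4d was higher with ThTC, and 10 in all 9, all lower. The 7 of ThTC against sECM only became 11 with 2 arms only, of which Sema4a was higher, and 13 with the neuron score, with 4 to 9 when 1 library was left out. The 0 of GFP-TC against sECM only became 1 with no filter, 1 with 2 arms only, 1 with the replicate block in 2 arms and 2 with the neuron score, with 0 to 9 when 1 library was left out. The share of all tested genes lower in ThTC against GFP-TC moved too, from 12.9% to 3.72% with scaling and 19.4% with the neuron score. Where no such share is given for a setting, its count cannot be read as particular to guidance genes. The 29 genes related to the neuron score were 2 without ThTC 3 and GFP-TC 3, 17 over deviations from arm means and 24 by Spearman rho, where 17.4% and 24.4% of all tested genes outside the score had as small a p. The cause of these shifts was not tested, beyond the fewer libraries that some settings hold. Read depth is unknown. In GENCODE M21, 28 of the 62 guidance genes, Sema4c and Ephb4 (33 bases) among them, overlap an annotated gene on the opposite strand. Several overlap another annotated gene on their own strand, among them Ntn3 (Tbc1d24) and Sema4b (Gm45206, 2285 bases). With the strand setting not known, reads from opposite-strand overlaps cannot be told apart. Reads from same-strand overlaps cannot be told apart by strand under any setting. Groups of 3 libraries are too small for the test of single outlying samples.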
